A study of Mus musculus with 8 samples.

Results

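Slc38a3, a glutamine transporter gene, and 7 other genes of glutamine transport and metabolism were followed in mouse epididymal fat, comparing Atg3 knockout with wild-type animals: Slc38a1, Slc38a2, Slc38a4, Slc1a5, Slc7a5, Glul and Glud1. They were taken by name from the 37417 genes of the deposited table, and all 8 were found. The list was drawn up with the knockout to wild-type contrast of these data known: Slc38a3 was selected on its higher read count in the knockout libraries, and the other genes are further glutamine transporters and enzymes. The values of the 8 genes in that contrast are therefore given as a description, with the standard error (SE) of each fitted difference and without p-values, and whether a gene was among those called over the whole table is stated only to place it.

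Glutamine is the most abundant free amino acid in blood, and fat takes it up, makes it and releases it. Cells move it across the plasma membrane with carriers of several families: the sodium-coupled neutral amino acid transporters of the Slc38 family, the exchanger encoded by Slc1a5 and the leucine-preferring exchanger encoded by Slc7a5, which trades intracellular glutamine for essential amino acids. Inside the cell, glutamine synthetase (Glul) joins ammonia to glutamate to make glutamine, and glutamate dehydrogenase (Glud1) converts glutamate to the citrate cycle intermediate alpha-ketoglutarate.

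RNA sequencing was carried out on epididymal fat, the visceral fat pad along the epididymis, of 4 wild-type (WT) and 4 knockout (KO) male C57Bl/6 mice fed chow. The KO mice have the genotype Adiponectin-Cre ERT2-Atg3 flox/flox: a floxed Atg3 gene, whose product conjugates LC3-family proteins during autophagosome formation, and a tamoxifen-activated Cre recombinase driven by the promoter of adiponectin, an adipocyte gene. Mice of both genotypes received tamoxifen, and by its title the series concerns deletion in the grown animal. The labels do not say whether the WT mice carried a floxed allele or Cre, or how old the mice were. Whole fat also holds vessels, immune cells and fibroblasts, which are not the target of this Cre, so a level in these bulk samples mixes cell types, and fewer cells of a type cannot be told apart from less RNA per cell.

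Library totals ran from 10986375 to 21688464 counts. Atg3 stood at 44.5 to 53.6 CPM (read counts relative to library size, scaled with edgeR's TMM factors) in WT and at 27.8 to 32.2 CPM in KO libraries, so each library lay on the side its label gives. The adipocyte markers Adipoq, Plin1, Cidec, Lep, Fabp4, Lipe, Pparg and Retn were present in all libraries and summed to 21170 to 30740 CPM in WT and 20410 to 26550 CPM in KO. Knockout libraries 2 and 3 stood apart: 15 duct epithelium markers, including Foxj1, Epcam and Pax8, reached a sum of 538 and 549 CPM there, against 35.9 and 48.1 CPM in knockout libraries 1 and 4 and 9.35 to 21.0 CPM in WT. Libraries 1 and 4 were also above every WT library for this sum, so no KO library matched WT in duct markers. Leaving out libraries 2 and 3 lessens this difference between the genotypes but does not remove it. The 6 endothelium markers also separated the genotypes, with sums of 1531 to 1771 CPM in WT and 1254 to 1443 CPM in KO. The sums of the other cell type and organ marker lists overlapped between the genotypes. The part of the endothelium in the glutamine gene values was not tested. For the glutamine genes that were highest in libraries 2 and 3, the fitted difference without both is also given.

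Of the 14800 genes tested over the whole table with edgeR's quasi-likelihood test, 60 (0.405%) were called at an adjusted p of 0.05, 41 higher in KO (0.277%) and 19 lower (0.128%). All 8 glutamine genes passed the filter on low counts, and 2 of them, Slc38a3 and Glul, were among the called genes, both higher in KO. For the same 2 genes no KO library overlapped a WT library, which held for 1312 tested genes (8.86%), 640 of them with KO above (4.32%) and 672 with KO below (4.54%). The list was made with this contrast known, so nothing is read from these shares. The fitted log2 fold change (log2FC, KO against WT) was positive for 5 of the 8 genes and negative for 3. Their median was 0.47, against -0.013 over all tested genes, of which 47.6% were positive.

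**Figure D1:**
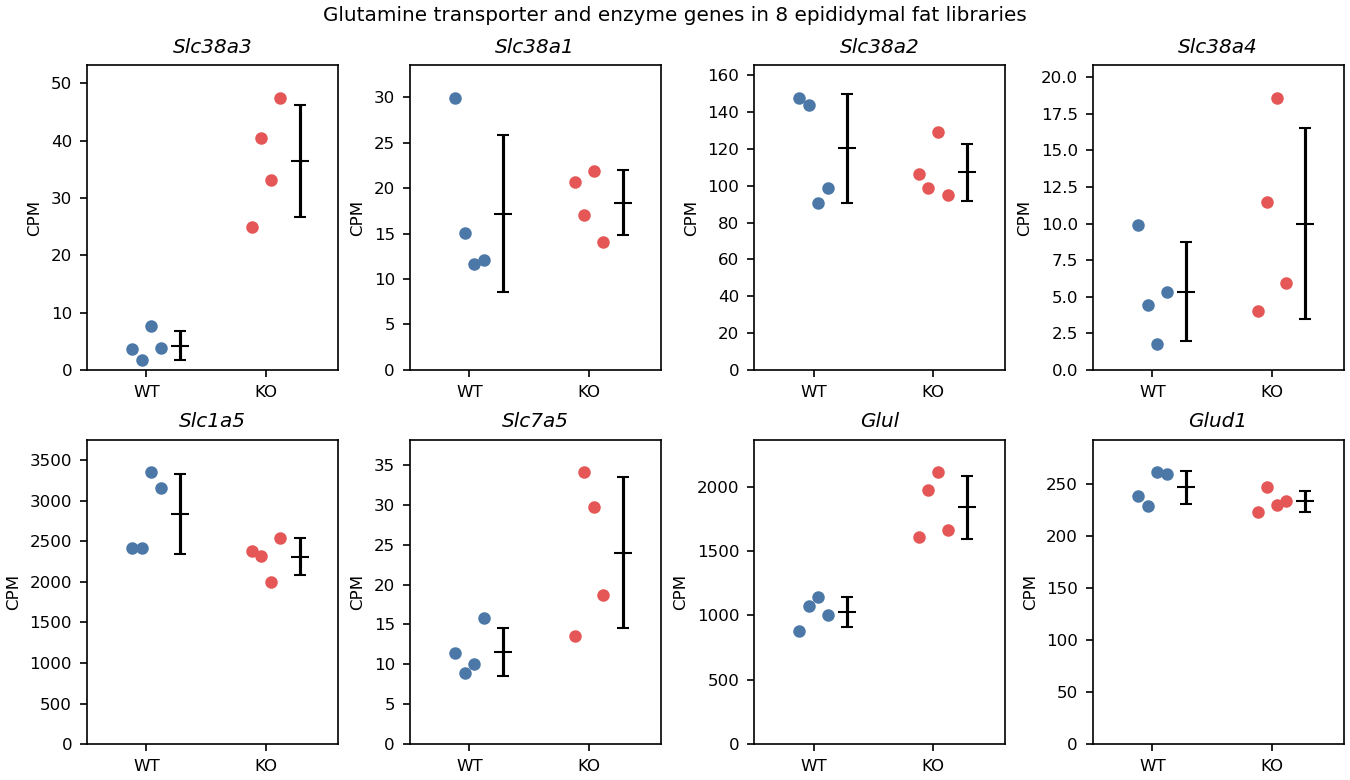
Level of each of the 8 glutamine genes in every library, in CPM on a linear axis from 0. Each point is 1 library (WT blue, KO red), and the black bar gives the mean ± SD of 4 libraries; the KO points lie above all WT points for Slc38a3 and Glul and overlap them for the other 6 genes.

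Slc38a3 (ENSMUSG00000010064; minus strand of chromosome 9, 107650639 to 107667374 in build mm10) encodes a sodium-coupled transporter of glutamine, histidine and asparagine that is best known from liver, kidney and brain. The 4 WT libraries held 42, 30, 94 and 58 reads of it, and the 4 KO libraries 323, 545, 486 and 987. Scaled to depth, these are 3.61, 1.76, 7.71 and 3.80 CPM in WT libraries 1 to 4 and 24.9, 40.4, 33.1 and 47.4 CPM in KO libraries 1 to 4. Every KO library was above every WT library, and the lowest KO value was 3.22 times the highest WT value. Means were 4.22 ± 2.50 CPM in WT and 36.4 ± 9.69 CPM in KO (SD, n = 4), a ratio of 8.63, with a log2FC of 3.13 (SE 0.40).

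The gene varied within each genotype as well. Its highest WT value was 4.37 times its lowest, and its highest KO value 1.91 times its lowest. Wild-type library 3 was the highest of its group at 7.71 CPM, and without it the log2FC was 3.59. The fitted difference stayed between 2.86 and 3.59 when each library was left out in turn.

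The difference in Slc38a3 was about as large in the KO libraries with lower duct marker sums as in those with higher ones. Libraries 1 and 4, at 35.9 and 48.1 CPM of summed duct markers, held 24.9 and 47.4 CPM of Slc38a3, and libraries 2 and 3, at 538 and 549 CPM, held 40.4 and 33.1 CPM. Without libraries 2 and 3 the log2FC was again 3.13 (SE 0.48), and with the mean log2 CPM of 9 duct markers as a covariate it was 3.28 (SE 0.60). In both fits the gene was no longer called, and they called 3 and 2 genes in all. The covariate was -0.44 to 0.49 in WT and 1.5 to 5.1 in KO libraries. It differed between the genotypes without overlap, so a fit with it cannot separate duct content from genotype. The same holds for every value given below with the duct marker covariate.

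Markers of organs known for Slc38a3 were measured in the same libraries. Liver markers (7 genes, Alb and Apoa1 among them) summed to 12.1 to 27.7 CPM in WT and to 54.9, 18.2, 14.9 and 87.3 CPM in KO libraries 1 to 4. Knockout libraries 2 and 3 lay within the WT range for these markers, and libraries 1 and 4 lay above it. Slc38a3 was at 40.4 and 33.1 CPM in the first pair and at 24.9 and 47.4 CPM in the second. Among 6 kidney tubule markers, Slc12a1 and Slc22a6 had no read in any library, and Umod and Slc34a1 had none in WT. The 6 markers summed to at most 1.57 CPM in WT and to 0.85, 4.15, 4.70 and 1.01 CPM in KO libraries 1 to 4. In KO libraries 2 and 3, rich in duct markers, Slc34a1 was highest (2.07 and 1.84 CPM), as was Umod (0.74 and 0.61 CPM). Gfap, an astrocyte marker, was at most 0.37 CPM in any library. Aqp4, another astrocyte marker that is also made in kidney, was at most 0.12 CPM in WT and at 0, 4.89, 6.61 and 0.48 CPM in KO libraries 1 to 4, so it was high in the libraries rich in duct markers. The 5 acinar pancreas markers summed to 9.81 to 30.8 CPM in WT and 15.7 to 41.0 CPM in KO. Nearly all of that was the elastase gene Cela1, at 9.46 to 30.8 CPM in WT and 15.5 to 40.9 CPM in KO, with overlap between the genotypes. Pnlip had no read, and Cpa1 and Prss2 stayed at or below 0.20 CPM. The part of these organs in the Slc38a3 values was not tested.

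Other annotated genes were also examined as a source of Slc38a3 reads, by overlap and by exact matches between transcripts. Sequence outside annotated transcripts and matches with mismatches were not searched. No other gene model of the table overlaps Slc38a3. Of 5712 distinct windows of 50 bases, the read length, in its GENCODE M21 transcripts, 0 occur in the transcripts of another gene. Its neighbours did not share its pattern. Gnai2, a G protein subunit gene 15297 bases away on the 3′ side, had 448 ± 13.4 CPM in WT and 471 ± 29.1 CPM in KO (SD, n = 4; log2FC 0.07). Sema3f, a semaphorin gene 14128 bases away on the 5′ side, had a log2FC of 0.20 and the splicing factor gene Rbm5 one of -0.10. The rod transducin gene Gnat1, the nearest at 7103 bases, stayed at or below 0.27 CPM in each library. Sema3b, a further semaphorin gene, had a log2FC of 0.71 (SE 0.37), with 12.5, 37.3, 31.7 and 12.2 CPM in KO libraries 1 to 4 against 11.4 to 17.2 CPM in WT, so that it was high only in KO libraries 2 and 3. The unnamed gene ENSMUSG00000070285, beyond Sema3b, was below the filter, at 0.29 to 1.03 CPM in WT and 0.08 to 3.68 CPM in KO.

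Within the Slc38 family the place of Slc38a3 differed between the genotypes. Levels of different genes are compared on the deposited FPKM scale, which divides by gene length and library total. Slc38a3 made up 1.24, 0.60, 2.82 and 1.31% of the summed FPKM of the 11 Slc38 genes in WT libraries 1 to 4, where it ranked between 6th and 9th. In KO libraries 1 to 4 it made up 8.35, 12.5, 9.97 and 13.6% and ranked 3rd or 4th. The family as a whole summed to 75.7 to 91.3 FPKM in WT and 88.2 to 103 FPKM in KO. These shares come from the contrast that put Slc38a3 on the list and are descriptions.

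**Figure D2:**
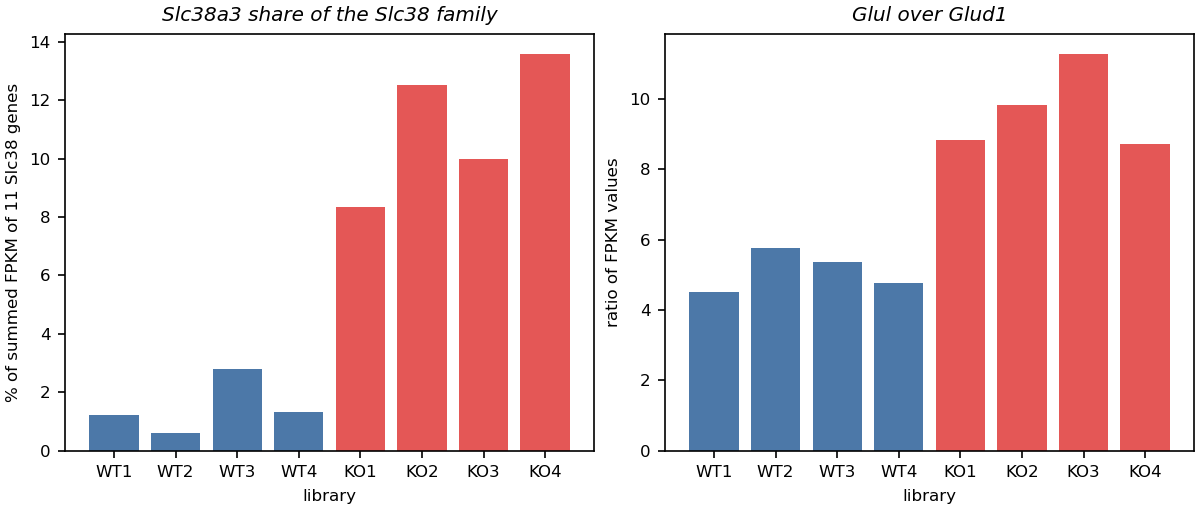
Left, the Slc38a3 share of the summed FPKM of 11 Slc38 genes in each library, in percent; right, the ratio of Glul to Glud1 FPKM in each library (WT blue, KO red, 1 bar per library, axes from 0). The share is 0.60 to 2.82% in WT and 8.35 to 13.6% in KO, and the ratio is 4.51 to 5.77 in WT and 8.72 to 11.3 in KO.

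The other 3 Slc38 genes on the list lie close together on chromosome 15 and overlapped between genotypes. Slc38a2 (chromosome 15, 96687394 to 96699698) encodes the transporter that many cells induce when amino acids are scarce. It held 148, 144, 90.8 and 98.5 CPM in WT libraries 1 to 4 and 106, 98.7, 129 and 94.9 CPM in KO libraries 1 to 4. The KO values lay within the WT range, with a log2FC of -0.16 (SE 0.18), which was -0.051 without WT library 1, -0.067 without WT library 2 and -0.42 with the duct marker covariate. It was the most abundant of these 4 transporters per length, at 26.0 ± 7.48 FPKM in WT and 23.4 ± 4.20 FPKM in KO (SD, n = 4).

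Slc38a1 (chromosome 15, 96571418 to 96642913), a transporter prominent in neurons and proliferating cells, held 29.9, 15.05, 11.65 and 12.05 CPM in WT and 20.7, 17.04, 21.9 and 14.0 CPM in KO. Wild-type library 1 was the highest of all 8, and the other WT libraries were near the lowest KO value. The log2FC was 0.10 (SE 0.30). It was 0.51 without WT library 1, and its sign turned without WT library 3 (-0.041) or 4 (-0.037), so no direction is given. Of its 17040 windows of 50 bases, 4.23% occur in another gene, mostly 4632432E15Rik.

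Slc38a4 (chromosome 15, 96994823 to 97055956), an imprinted transporter gene strongly expressed in liver and placenta, held 9.89, 4.41, 1.80 and 5.30 CPM in WT and 4.00, 11.5, 18.6 and 5.91 CPM in KO. The higher KO values were those of libraries 2 and 3, and libraries 1 and 4 lay inside the WT range. Its log2FC of 0.90 (SE 0.57) turned to -0.087 (SE 0.56) without knockout libraries 2 and 3 and to -1.01 (SE 0.69) with the duct marker covariate. It was 0.42 without KO library 3 alone and 1.37 without WT library 1. The part of the duct epithelium in these values was not tested further.

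Slc1a5 (chromosome 7, 16781346 to 16798274), the exchanger of glutamine and other neutral amino acids, had the highest level per length of the 8 genes in WT fat, at 674 ± 92.0 FPKM (SD, n = 4). Its WT libraries held 2412, 2410, 3349 and 3158 CPM and its KO libraries 2383, 2316, 1999 and 2539 CPM. The KO values were at or below the lower WT libraries except in library 4, and the groups overlapped. The log2FC was -0.29 (SE 0.15), and it was -0.20 to -0.37 when each library was left out in turn. It was -0.19 (SE 0.20) without KO libraries 2 and 3 and -0.047 (SE 0.26) with the duct marker covariate.

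Slc7a5 (chromosome 8, 121881152 to 121907694), the light chain of the exchanger that pairs with Slc3a2, held 11.4, 8.93, 10.1 and 15.8 CPM in WT and 13.5, 34.1, 29.7 and 18.7 CPM in KO. Its KO values were highest in libraries 2 and 3, as for Slc38a4, and library 1 lay inside the WT range. The log2FC was 1.05 (SE 0.30). It was 0.50 (SE 0.25) without libraries 2 and 3 and 0.004 (SE 0.32) with the duct marker covariate, and the gene was called only by DESeq2 among the settings run. A gene model on the opposite strand, Gm20388, spans Slc7a5 with 204 ± 44.3 CPM in WT and 161 ± 20.3 CPM in KO (SD, n = 4). It runs from 119910841 to 124345722, far beyond Slc7a5 on both sides, and how much of its count lies at Slc7a5 is not known. No source used here says that reads were counted by strand, which makes the Slc7a5 count uncertain. Its partner Slc3a2 had a log2FC of -0.12 (SE 0.092) and was not called, with 163 to 206 CPM in WT and 155 to 178 CPM in KO.

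Glul (ENSMUSG00000026473; plus strand of chromosome 1, 153899944 to 153909723) was the other called gene. Glutamine synthetase is the enzyme of glutamine synthesis, and adipose tissue is known to release glutamine. The WT libraries held 877, 1074, 1144 and 1006 CPM and the KO libraries 1609, 1975, 2112 and 1662 CPM. Every KO library was above every WT library, with the lowest KO value 1.41 times the highest WT value. Means were 1025 ± 114 CPM in WT and 1839 ± 243 CPM in KO (SD, n = 4), a ratio of 1.79, with a log2FC of 0.84 (SE 0.13).

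Glul was highest in the 2 KO libraries rich in duct markers, at 1975 and 2112 CPM against 1609 and 1662 CPM in libraries 1 and 4, and these last 2 were still above the highest WT value of 1144 CPM. Its log2FC was 0.69 (SE 0.15) without libraries 2 and 3 and 0.54 (SE 0.20) with the duct marker covariate, and it was called in neither fit. The mitochondrial share of counts, 3.05 to 4.93% in WT, was also higher in all KO libraries, 5.03 to 6.08%; its part in the Glul and Slc38a3 values was not tested.

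**Figure D3:**
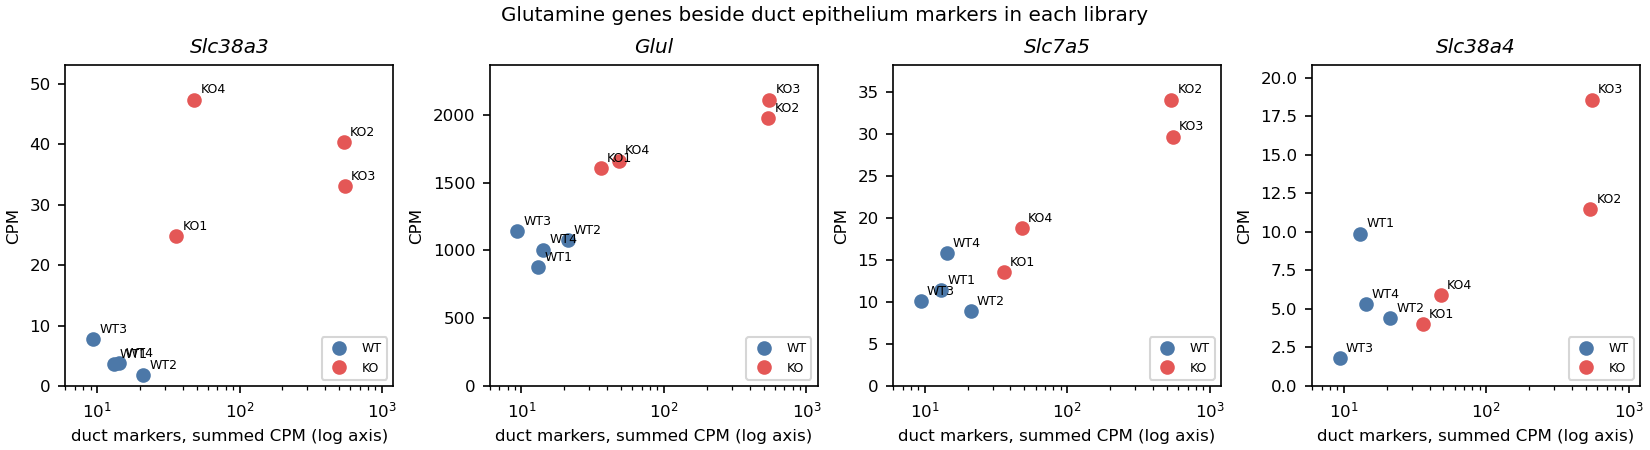
CPM of Slc38a3, Glul, Slc7a5 and Slc38a4 (vertical axes, linear from 0) against the summed CPM of 15 duct epithelium markers (horizontal axis, logarithmic), 1 labelled point per library (WT blue, KO red). Knockout libraries 1 and 4, with 35.9 and 48.1 CPM of duct markers, are above all WT libraries for Slc38a3 and Glul. Both lie in the WT range for Slc38a4, and library 1 does for Slc7a5.

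Because Glul has processed copies in the genome, its transcripts were compared with those of other annotated genes in the same way. Of 3266 windows of 50 bases in its transcripts, 12.6% occur in another gene, most of them in the pseudogene Glns-ps1. That pseudogene held 16.4, 1.06, 19.6 and 41.0 CPM in WT libraries 1 to 4 and 1.77, 35.5, 2.93 and 1.78 CPM in KO libraries 1 to 4. It varied within both genotypes with no separation between them, and was far below Glul in each library. The overlapping gene A930039A15Rik, on the same strand, held 2.88 ± 1.14 CPM in WT and 3.59 ± 1.43 CPM in KO (SD, n = 4). The models overlapping on the opposite strand, 5830403L16Rik and ENSMUSG00000079255, were at or near 0.

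The stretch upstream of Glul is shown because Glul is the called gene with an entry in the RefSeq promoter table (GRCm38.p6), in which 4 of the 8 genes matched by symbol (Glul, Glud1, Slc38a2 and Slc38a4). These are the 250 bases before its RefSeq start, chr1:153899679-153899928, plus strand, 5′ to 3′, with CCAAT boxes in capitals.
Glul: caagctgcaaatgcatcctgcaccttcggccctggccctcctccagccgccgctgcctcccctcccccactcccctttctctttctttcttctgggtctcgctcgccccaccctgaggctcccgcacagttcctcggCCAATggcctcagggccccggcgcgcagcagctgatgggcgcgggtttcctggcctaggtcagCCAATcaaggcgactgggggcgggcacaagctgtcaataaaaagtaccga
The letters CCAAT, searched on both strands, begin 113 and 50 bases before the start, and 33.8% of 32851 promoter windows of this length hold them at least once. Another 3 motifs were searched on both strands without a match here: the antioxidant response element core TGACNNNGC, bound by NRF2 (10.2% of windows), the amino acid response element core TGATGNAA, bound by ATF4 (3.45%), and the E-box CACGTG, bound by TFEB and other factors (6.02%). Among the other matched genes, TGACNNNGC was found once, in the window of Slc38a2.

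Glud1 (chromosome 14, 34310727 to 34345144) was the steadiest of the 8 genes. Its WT libraries held 239, 229, 261 and 259 CPM and its KO libraries 223, 247, 230 and 234 CPM. The groups overlapped, with a log2FC of -0.081 (SE 0.078) and a coefficient of variation of 6.45% in WT and 4.27% in KO. Of its 4207 windows of 50 bases, 6.49% occur in other genes, mostly the pseudogene Glud-ps.

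Ranked by FPKM in WT fat, the order was Slc1a5 (674), Glul (305), Glud1 (60.0), Slc38a2 (26.0), Slc7a5 (3.27), Slc38a1 (2.07), Slc38a4 (1.35) and Slc38a3 (1.22). The first 4 did not overlap with the next gene over the 4 libraries, and from Slc7a5 on each range met that of the next gene. In KO fat Slc1a5 (556 ± 36.5 FPKM) and Glul (556 ± 90.1 FPKM; SD, n = 4) could not be ordered, each being the higher in 2 libraries. Slc38a3 ranked 5th in KO fat at 10.8 ± 2.61 FPKM (SD, n = 4), above Slc7a5 in each of the 4 libraries and below Slc38a2 in all of them.

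Per length, Glul stood at 4.51, 5.77, 5.37 and 4.76 times Glud1 in WT libraries 1 to 4 and at 8.84, 9.82, 11.3 and 8.72 times Glud1 in KO libraries 1 to 4. The ratio separates the genotypes without overlap. It compares genes inside a library and so does not depend on the scaling between libraries. Because Glud1 varied little, the ratio largely restates the difference in Glul given above and is a description.

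A wider set of 63 genes of glutamine and glutamate handling was listed by function. It was drawn up with earlier results of these data known, so its counts and p-values are given as a description. Of the 63 genes, 56 could be tested. With edgeR's quasi-likelihood test 0 of them passed an adjusted p of 0.05 over all genes, against 0.405% of all tested genes. At an unadjusted p under 0.05 there were 14 of 56, against 2394 of all 14800 tested genes (16.2%), and DESeq2 called 4 (Got1, Abat, Gclm and Trib3), all higher in KO, against 813 genes in all. The log2FC was positive for 33 and negative for 23, with a median of 0.059, against -0.013 over all tested genes. In 6 of the 56 the KO libraries were all above the WT libraries and in 0 all below, against 4.32% and 4.54% of all tested genes.

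**Figure D4:**
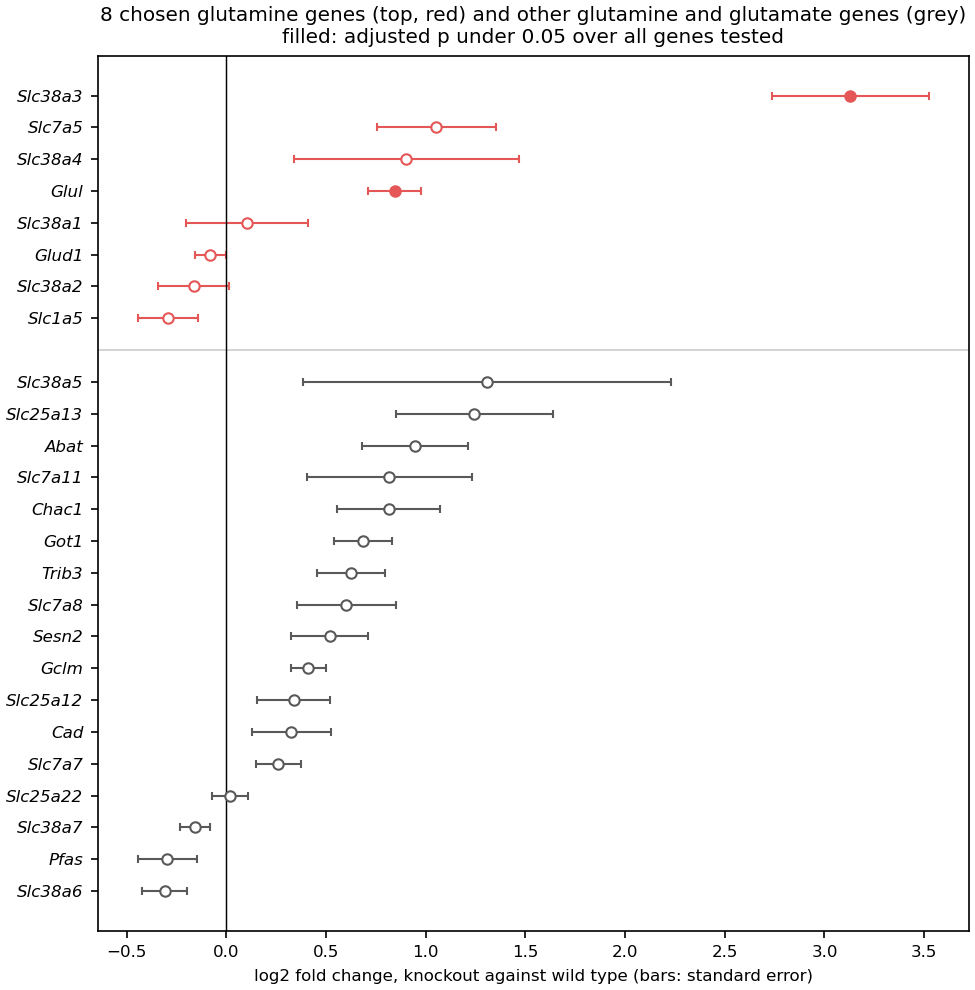
Fitted log2 fold change of KO against WT (horizontal axis) with its standard error for the 8 glutamine genes (red, top) and the named genes of the wider set (grey, bottom), sorted by value; filled points were called at an adjusted p of 0.05 over all genes. Slc38a3 stands at 3.13 and Glul at 0.84 as the filled points, and no grey point is filled.

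Among the other 7 Slc38 transporters, of which 6 were tested, 3 had a positive and 3 a negative log2FC. Slc38a6 had 26.2 to 36.2 CPM in WT and 23.6 to 27.3 CPM in KO (log2FC -0.31, SE 0.11, edgeR adjusted p = 0.226; log2FC -0.20 with the duct marker covariate). The lysosomal glutamine exporter Slc38a7 had a log2FC of -0.16 (adjusted p = 0.356) with edgeR. Slc38a5, a close relative of Slc38a3 with similar substrates, held 0.26, 0.59, 0.25 and 4.58 CPM in WT and 0.92, 4.96, 6.33 and 2.21 CPM in KO (log2FC 1.31, SE 0.92). It did not separate the genotypes, since WT library 4 lay with the KO libraries. The log2FC was 3.22 without that library, 0.15 without KO libraries 2 and 3 and -0.91 with the duct marker covariate. Slc38a10, the most abundant of these 7, ran from 181 to 267 CPM in WT and 225 to 314 CPM in KO.

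Among 12 other carriers of the plasma membrane, 8 were tested and 5 had a positive log2FC. Slc7a8, an exchanger of neutral amino acids, had 33.5 to 57.1 CPM in WT and 43.4 to 96.0 CPM in KO (log2FC 0.60, SE 0.25, edgeR adjusted p = 0.274). Its log2FC was 0.36 without KO library 4, the highest, 0.94 without KO libraries 2 and 3 and 1.19 with the duct marker covariate. Slc7a7, an exchanger of cationic for neutral amino acids, had 9.76 to 10.99 CPM in WT and 11.5 to 13.7 CPM in KO, without overlap (log2FC 0.26, edgeR adjusted p = 0.300), and its log2FC was 0.15 with the covariate. The cystine and glutamate exchanger Slc7a11 stayed at or below 2.85 CPM (log2FC 0.82, SE 0.41, edgeR adjusted p = 0.375; 1.41 with the covariate).

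Mitochondrial glutamate carriers numbered 4, with 3 tested. Slc25a13, a carrier exchanging aspartate for glutamate, held 1.18 to 2.53 CPM in WT and 3.001, 6.89, 6.40 and 2.55 CPM in KO libraries 1 to 4 (log2FC 1.24, SE 0.40, edgeR adjusted p = 0.179). Its higher values were again in KO libraries 2 and 3, and its log2FC was 0.49 without them and -0.12 with the duct marker covariate. Slc25a12, which performs the same exchange, had a log2FC of 0.34, which was 0.085 without KO libraries 2 and 3 and turned to -0.19 with that covariate. Slc25a22, a glutamate carrier, was at 94.9 to 113 CPM in WT and 93.1 to 116 CPM in KO (log2FC 0.018, SE 0.089).

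All 15 genes listed as enzymes that use glutamine were tested, and 8 had a positive log2FC, with a median of 0.044. The list includes Eprs, a tRNA synthetase that uses glutamate and proline rather than glutamine. Pfas, of purine synthesis, had a log2FC of -0.30 (edgeR adjusted p = 0.362). Cad, of pyrimidine synthesis, had one of 0.33 (SE 0.20), which was 0.20 without KO library 3 and turned to -0.021 without knockout libraries 2 and 3 and to -0.40 with the duct marker covariate.

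Of 16 enzymes that use or form glutamate, 15 were tested, 6 reached an unadjusted p under 0.05 (against 16.2% of all tested genes), and 9 had a positive log2FC. Got1, the cytosolic aspartate aminotransferase, held 12.04, 11.2, 11.8 and 10.7 CPM in WT and 14.6, 21.3, 21.2 and 16.3 CPM in KO. The groups did not overlap (log2FC 0.69, SE 0.15, edgeR adjusted p = 0.0926), and the gene was called without KO library 1 (log2FC 0.78). Its KO values were highest in libraries 2 and 3, and its log2FC was 0.45 without them (edgeR adjusted p = 0.399) and 0.23 with the duct marker covariate (adjusted p = 0.712). Gclm, the modifier subunit of glutamate-cysteine ligase, had 45.4 to 52.5 CPM in WT and 57.5 to 71.7 CPM in KO (log2FC 0.41, SE 0.088, edgeR adjusted p = 0.0944). With scaling by library size alone it was called (log2FC 0.43). Abat, the aminotransferase of gamma-aminobutyrate, held 39.7, 70.1, 90.7 and 60.7 CPM in WT and 108, 100.3, 111 and 183 CPM in KO (log2FC 0.95, SE 0.27, edgeR adjusted p = 0.147).

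Genes of the amino acid response driven by the transcription factor ATF4 were listed because that response is known to induce several amino acid transporters. Of 12 such genes, all tested, 7 had a positive log2FC, with a median of 0.040, and 0 passed with edgeR; 3 had an unadjusted p under 0.05, against 16.2% of all tested genes. Trib3, a pseudokinase gene, had 12.3 to 13.5 CPM in WT and 14.4 to 25.5 CPM in KO (log2FC 0.63, SE 0.17, edgeR adjusted p = 0.141; log2FC 1.16 with the duct marker covariate). Chac1, which degrades glutathione, had 5.59 to 11.9 CPM in WT and 11.2 to 18.3 CPM in KO (log2FC 0.81, edgeR adjusted p = 0.180), and Sesn2 a log2FC of 0.52 (edgeR adjusted p = 0.235). Asns, asparagine synthetase, had 68.5 to 79.0 CPM in WT and 67.3 to 86.3 CPM in KO (log2FC 0.054, SE 0.094), and Atf4 itself had a log2FC of -0.19 (SE 0.10).

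The genes whose levels followed Slc38a3 most closely over the 8 libraries were found by Pearson's r of log2 CPM among 14329 other genes that averaged 1 CPM or more. The points share the genotype contrast, so these are descriptions. The closest were Slc31a1, a copper importer (r = 0.970), Mt2, a metallothionein (0.967), Fth1, the ferritin heavy chain (0.965), AC151602.1, a small RNA gene inside the ferritin light chain gene (0.964), and Grina (0.964). Slc31a1 held 47.6 to 59.1 CPM in WT and 67.6 to 75.4 CPM in KO, and Mt2 held 82.2 to 129 CPM in WT and 140 to 171 CPM in KO. In both, WT library 3 was the highest WT library, as it was for Slc38a3.

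Likeness was then measured on deviations from the genotype means, which takes the contrast out. The closest genes over the same 8 libraries were Mrpl37, a mitochondrial ribosomal protein (r = 0.982), Top1mt, the mitochondrial topoisomerase (0.967), Shf (0.965), Rab4b, a small GTPase of endosomal recycling (0.961), and Tomm40l (0.950). Their own fitted differences between genotypes ran from -0.18 (Tomm40l) to 0.11 (Top1mt), and none was called. None of the 5 genes closest over all libraries was among these 5. The closest of 14329 genes over 8 libraries can reach a high r by chance, so this ranking is a description too.

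The calls of Slc38a3 and Glul depended on which mice were included. Both were called without KO library 1. Slc38a3 alone was called without WT library 3 (log2FC 3.59), KO library 3 (3.18) or KO library 4 (2.97). Neither was called without WT library 1 (Slc38a3 3.07, Glul 0.78), WT library 2 (2.86 and 0.86), WT library 4 (3.09 and 0.83) or KO library 2 (3.08 and 0.81). Without these libraries the whole table gave 7, 4, 8 and 0 calls in turn, against 60 with all libraries. The fit without KO library 2 held 1573 genes at an unadjusted p under 0.05 with edgeR, against 2394 with all libraries. The size of the Slc38a3 and Glul differences moved little in these fits, and the sign of neither changed in any setting run.

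**Figure D5:**
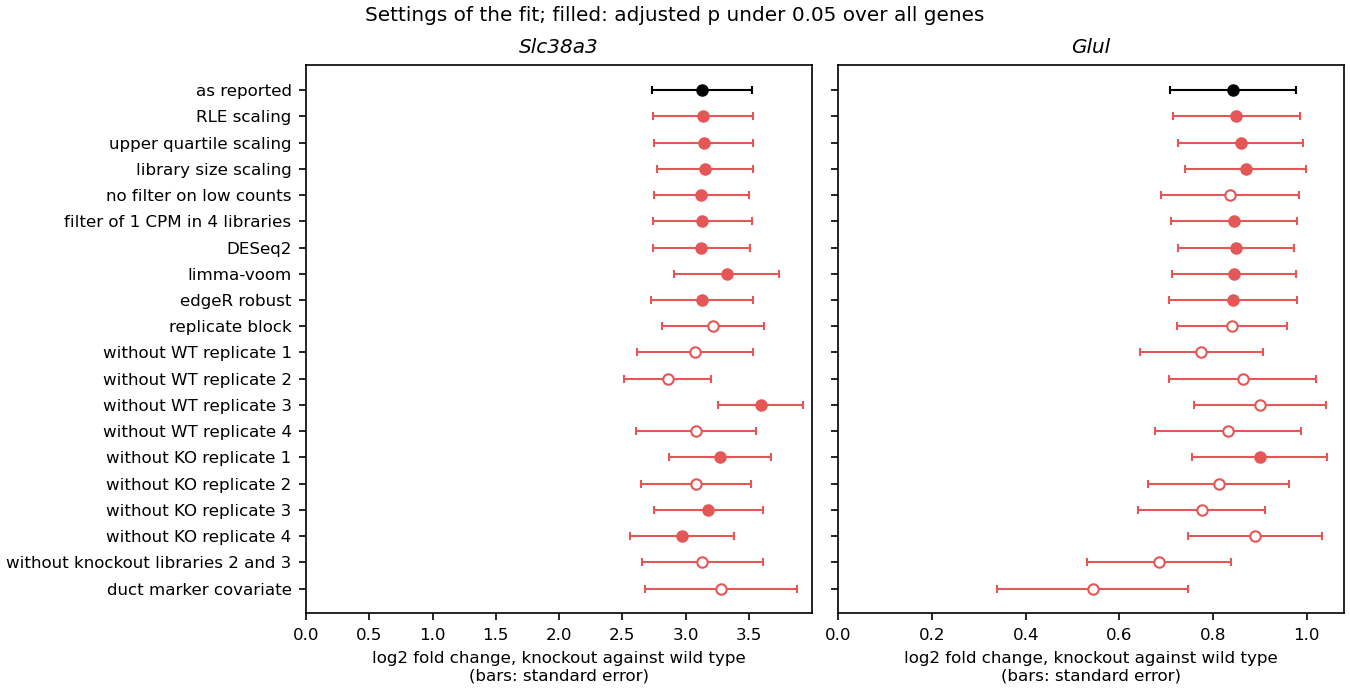
Log2 fold change of Slc38a3 (left) and Glul (right) with its standard error, as reported (black) and under each of 19 other settings of the fit (red); filled points were called at an adjusted p of 0.05 over all genes of that fit. Slc38a3 ranges from 2.86 to 3.59 and was called in 12 of the 19, and Glul ranges from 0.54 to 0.90 and was called in 8.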

How the data were processed

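Per the labels' protocols, polyadenylated RNA was made into stranded TruSeq libraries and sequenced as single reads of 50 cycles. Build mm10, Novoalign 2.8.1 and Picard come from the submitters' processing notes; the counting program, annotation and strand setting were not given in the sources used here. Per the file headers, the table deposited by the authors holds, for every gene in every library, a raw read count and an FPKM value (count relative to gene length and library total). All 158499 FPKM values above 0 equal count over length and total within 0.1%. Starts in the file were raised by 1 base to browser coordinates.

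Genes were filtered with filterByExpr (minimum count 10), scaled by TMM and tested with edgeR 4.0.16 (R 4.3.3; glmQLFit, glmQLFTest, no covariate), with Benjamini-Hochberg adjustment over 14800 genes. The SE of a log2FC was derived from the F statistic. Log2 CPM values used a prior count of 2. Alternatives used DESeq2 1.42.0, limma-voom (limma 3.58.1), other scalings and filters, a replicate block, and each library left out; leaving out KO libraries 2 and 3 and a duct marker covariate were added after the data were seen. The script was tested on simulated counts. No pair of libraries of a genotype agreed within sampling noise (lowest chi-square per degree of freedom 18.2). The labels name 4 mice per genotype, and p-values measure the spread between them.

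The 8 genes and all lists were chosen with earlier results of these data known. Named are the 8 genes, the 3 genes with the lowest p of each list and any called, the 3 nearest genes on each side of Slc38a3, overlapping genes, and the 5 genes most like Slc38a3 by each measure. Slc3a2, Slc38a10, Asns, Atf4 and Glns-ps1 were named after their values were seen. A gene that the rule took is not reported here. Of the marker lists, those not described in the results summed as follows in WT and KO. Mesothelium was at 65.5 to 245 and 111 to 342 CPM, and macrophage at 822 to 1065 and 778 to 1040 CPM. Lymphocyte was at 47.7 to 214 and 53.8 to 112 CPM. Fibroblast was at 2583 to 3744 and 2160 to 3199 CPM, and skeletal muscle at 14.2 to 44.8 and 7.90 to 34.2 CPM.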

Additional observations from a re-analysis of the deposited data

Results flagged for a closer look

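In 50 groups of 4 libraries, 2 held 1 library far from the other 3 by Dixon's criterion. The groups were 25 genes in each genotype: the glutamine genes on the list and the named genes of the wider set. Chance gives about 1 group in 20, a share that 2 of 50 does not exceed. The genes of the wider set were named for a low p in this contrast, so that rate need not hold for them. Slc38a5 stood at 4.58 CPM in WT library 4, against 0.25 to 0.59 CPM in the other WT libraries, and without that library its log2FC was 3.22 in place of 1.31. Abat stood at 183 CPM in KO library 4, against 100.3 to 111 CPM in the other KO libraries, and without that library its log2FC was 0.71.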

How the results depend on the processing

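Over all 19 alternatives Slc38a3 (2.86 to 3.59) and Glul (0.54 to 0.90) stayed positive. Slc7a5 (0.004 to 1.24), Slc1a5 (-0.37 to -0.047), Slc38a2 (-0.42 to -0.051) and Glud1 (-0.12 to -0.051) changed no sign. With the duct marker covariate, however, Slc7a5, Slc1a5 and Glud1 were within 1 SE of 0 (SE 0.32, 0.26 and 0.14). Slc38a2 was within 1 SE of 0 in the fit as reported (-0.16, SE 0.18). Leaving out each library in turn gave 0 to 290 called genes, 0 to 2 of the 8 glutamine genes, 0 to 1 of the wider set and a Slc38a3 log2FC of 2.86 to 3.59. DESeq2 called 813 genes and 4 of the wider set, and library size scaling called 1 of the wider set. With no filter on low counts 1 of the 8 genes was called. The replicate numbers did not pair the libraries (correlations of same-numbered deviations 0.184, -0.106, -0.254 and 0.0577); with the replicate number as a block 14 genes and 0 of the 8 were called, with Slc38a3 at 3.22. Without KO libraries 2 and 3 there were 3 called genes, 0 of the 8, and Slc38a3 at 3.13; with the duct marker covariate 2, 0 and 3.28. Signs turned without KO libraries 2 and 3 for Slc38a4 (-0.087), Slc25a22 (-0.046) and Cad (-0.021), and with the covariate for Slc38a1 (-0.091), Slc38a4 (-1.01), Slc38a5 (-0.91), Slc25a13 (-0.12), Slc25a12 (-0.19), Slc25a22 (-0.095) and Cad (-0.40). When single libraries were left out, Slc38a1 ran from -0.041 to 0.51 and Slc25a22 from -0.026 to 0.075. The duct marker covariate was higher in every KO library than in every WT library, so it cannot be told apart from genotype. The cause of these changes was not tested. Depth limits the low genes most: Slc38a3 had 30 to 94 reads per WT library.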
